A study of Mus musculus with 20 samples.

Results

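The colon transcriptome of mice that received Pien Tze Huang (PZH) with and without the AOM/DSS cancer model was compared here: 5 PZH + AOM/DSS mice (numbers 2, 13, 15, 35 and 36) against 5 PZH mice (numbers 8, 14, 27, 46 and 53), which are 10 of the 20 mice of the study. The members were taken by their group labels. All 10 were male C57BL/6 mice given 250 mg/kg/d PZH by gavage for 91 days, so PZH, a traditional Chinese medicine formula, was common to both sides. The PZH + AOM/DSS mice also received 1 intraperitoneal dose of 12.5 mg/kg azoxymethane (AOM), a colon carcinogen, and 4 cycles of 2% dextran sodium sulfate (DSS) in the drinking water, each of 5 days, with 2 weeks of plain water after it. The other 10 mice were given distilled water in place of PZH, as 5 Control and 5 AOM/DSS mice, and share no animal with the comparison. The age of the mice and the part of the colon taken, tumour or not, are not given in the sources used here.

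AOM alkylates DNA in the colon epithelium, and repeated DSS damages the mucosa, so that tumours arise in an inflamed colon. Such tumours usually carry an active Wnt/β-catenin pathway, in which β-catenin enters the nucleus and drives crypt genes together with its own inhibitors. Inflamed mucosa takes in neutrophils, monocytes, T cells and plasma cells, while its surface colonocytes, which absorb salt and burn fatty acids, lose mature functions.

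Gene levels are FPKM, fragments per kilobase of transcript scaled to library size, summed over the Ensembl transcripts of a gene. Differences are PZH + AOM/DSS minus PZH on the log2(FPKM + 1) scale, which understates the change of low genes. P values come from limma over the 10 mice with Benjamini-Hochberg adjustment, and a gene is called where the adjusted P is under 0.05. Values are listed in the order of the mouse numbers above. The 10 libraries held an estimated 15.3 to 17.5 M fragments. Colon markers were high in all of them (Cdx1, Muc2 and Vil1), and Vil1, a brush-border protein, stood at 238, 244, 258, 254 and 254 FPKM in the PZH mice and 229, 244, 189, 192 and 198 FPKM in the PZH + AOM/DSS mice. The labels' extraction text names the abdominal aorta, whereas Eln, the elastin of large arteries, stood at only 8.02, 10.1, 9.77, 8.28 and 4.88 FPKM in the PZH mice and 12.3, 12.2, 9.45, 13.1 and 4.67 FPKM in the PZH + AOM/DSS mice.

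Of 15636 genes tested, 378 were called (2.42%), of which 272 were higher (1.74%) and 106 lower (0.678%) in the PZH + AOM/DSS mice. In 355 of the 378 the groups did not overlap, against 7.37% of all genes tested. Calls and overlap rest on the same values, so this follows in part from the choice of called genes. At an unadjusted P under 0.05 there were 3268 genes (20.9%), and at a fold above 2 with an unadjusted P under 0.05, the criteria of the study, 490 (3.13%). The median difference over all genes tested was 0.0449. The filter admitted 29 genes through the PZH + AOM/DSS group alone, and 6 of the 272 higher genes were among them. Through the PZH group alone it admitted 10, and 2 of the 106 lower genes were among them. At the transcript level 1326 of 40904 passed the criteria of the study (3.24%), 780 higher (1.91%) and 546 lower (1.33%).

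The PZH + AOM/DSS mice were not alike. In mice 15 and 35, 10.6% and 11.6% of the tested genes lay more than 1 log2 unit from the mean of the PZH mice, against 5.39% to 6.01% in mice 2, 13 and 36 and 3.50% to 4.44% in the PZH mice themselves. Mouse 15 was the highest of its group for 109 of the 272 higher genes and mouse 35 for 96. Without both mice, a setting added after the values were seen, 33 genes were called and 27 of them were among the 378. For genes named below it is said where the call remained without these mice, and Bex4 (-1.52 with all 10 mice) and Gstm2 (-1.08), chosen after their values were seen, also remained.

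**Figure D1:**
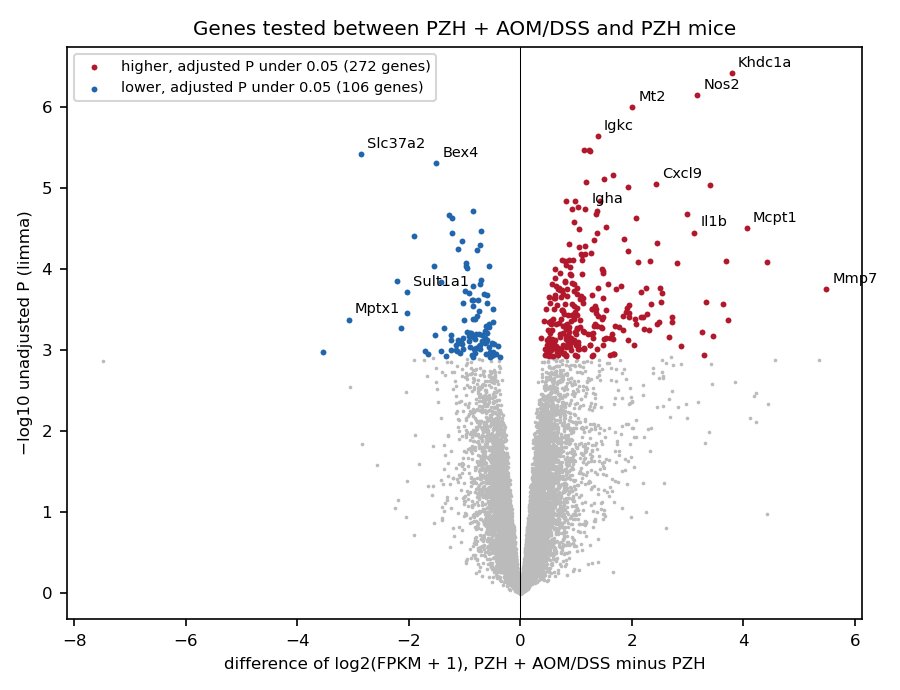
Each point is 1 of 15636 genes, with the difference of log2(FPKM + 1) between 5 PZH + AOM/DSS and 5 PZH mice on the x axis and −log10 of the unadjusted limma P on the y axis. Red points are the 272 genes called higher and blue points the 106 called lower, and Khdc1a, Nos2 and Mt2 stand at the top.

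Khdc1a, Nos2 and Mt2 had the lowest P values. Nos2 (ENSMUSG00000020826.8, chr11:78920787-78960254), the inducible nitric oxide synthase, stood at 3.3, 1.51, 1.44, 2.42 and 1.46 FPKM in the PZH mice and 13.7, 17.4, 28.4, 36.1 and 44.2 FPKM in the PZH + AOM/DSS mice. The groups did not overlap, the largest PZH value being less than the smallest of the other group, and the difference was 3.18 ± 0.31 (SE), adjusted P = 0.00521. Khdc1a (ENSMUSG00000067750.3, chr1:21349641-21352200), a KH-domain gene, stood at 0, 0.535, 0.974, 0.752 and 0.919 FPKM in the PZH mice and 29.1, 10.2, 24.4, 40.3 and 13.6 FPKM in the PZH + AOM/DSS mice. It separated the groups as cleanly (3.79 ± 0.35 (SE), adjusted P = 0.00521). Mt2, a metallothionein that binds zinc and copper, stood at 30.6, 29.7, 26.7, 52.1 and 35.5 FPKM in the PZH mice and 142, 97.8, 135, 149.8 and 189 FPKM in the PZH + AOM/DSS mice. All PZH + AOM/DSS mice lay above all PZH mice (2.01 ± 0.20 (SE), adjusted P = 0.00521). Without mice 15 and 35 these 3 genes were still called. The same held for Tnfrsf1b, Tspan4, Ffar4 and Igkc, which shared the next adjusted P of 0.00733 with the lower gene Slc37a2.

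The 10 genes with the largest rises were Mmp7, Mt4, Mcpt1, Mcpt2, Khdc1a, Plet1, Cxcl5, Ighg2c, Ighv1-54 and Ighv3-8. Mmp7 (ENSMUSG00000018623.9, chr9:7692090-7699585), matrilysin, a protease of Paneth cells and intestinal tumours, was listed at 0 in all PZH mice and stood at 11.7, 5.64, 127, 504 and 31.6 FPKM in the PZH + AOM/DSS mice (adjusted P = 0.0274). It spanned a wide range within the group, with mouse 35 at the top and mouse 13 at the bottom. Mt4, the metallothionein of stratified epithelium, stood at 0.306, 0, 0, 0 and 0.287 FPKM in the PZH mice and 12.2, 6.31, 36.3, 177 and 10.6 FPKM in the PZH + AOM/DSS mice, again with mouse 35 far above the rest. Neither gene passed the filter on low values once mice 15 and 35 were left out.

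Mcpt1 and Mcpt2, the chymases of mucosal mast cells, rose together. Mcpt1 stood at 1.71, 0.881, 0.9999, 2.79 and 1.67 FPKM in the PZH mice and 22.2, 16.2, 157, 100.3 and 20.1 FPKM in the PZH + AOM/DSS mice (4.06 ± 0.59 (SE), adjusted P = 0.0156). Mcpt2 stood at 0.659, 0.174, 0.637, 2.71 and 0.922 FPKM in the PZH mice and 10.2, 7.18, 100.4, 61.6 and 10.8 FPKM in the PZH + AOM/DSS mice (3.64 ± 0.69 (SE), adjusted P = 0.0312). For both, mice 15 and 35 were highest, and the calls remained without them. Cpa3, the mast cell carboxypeptidase, stood at 0.231, 0.17, 0.0848, 0.162 and 0 FPKM in the PZH mice and 0.846, 1.26, 12.6, 9.05 and 1.96 FPKM in the PZH + AOM/DSS mice and missed the threshold (1.97 ± 0.52 (SE), adjusted P = 0.0702). Fcer1a, the chain of the IgE receptor that binds IgE, was listed at 0 in every PZH mouse and at 0.388, 0.776, 4.9, 2.84 and 0.318 FPKM in the others, and was too low to be tested. Of 8 mast cell genes looked up after the chymases were seen, 4 were tested and 2 were called, Mcpt1 and Mcpt2 themselves. Cpa3 passed the filter through the PZH + AOM/DSS group alone, so it could only come out higher. Cma1, which stood at 7.33, 3.05, 5.79, 4.1 and 4.57 FPKM in the PZH mice and 6.04, 7.08, 6.17, 7.86 and 6.03 FPKM in the PZH + AOM/DSS mice, was not among those called (0.39 ± 0.19 (SE), adjusted P = 0.263). Mast cell proteases are near copies of each other, so the split of fragments between Mcpt1 and Mcpt2 is uncertain.

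Plet1, an epithelial surface protein of progenitor cells, stood at 2.11, 4.16, 2.39, 4.6 and 1.27 FPKM in the PZH mice and 69.4, 23.4, 184, 6.73 and 115 FPKM in the PZH + AOM/DSS mice. Its highest values were in mice 15 and 36 and its lowest in mouse 35, the reverse of Mmp7 for that mouse (3.73 ± 0.75 (SE), adjusted P = 0.0363), and the call remained without mice 15 and 35. Cxcl5, a chemokine that draws neutrophils, stood at 0.891, 0.64, 1.02, 1.07 and 0.451 FPKM in the PZH mice and 6.67, 3.56, 24.4, 65.7 and 32.2 FPKM in the PZH + AOM/DSS mice (3.33 ± 0.62 (SE), adjusted P = 0.0308). The remaining 3 of the 10 are immunoglobulin genes, described with the antibody genes below.

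Mptx1 (ENSMUSG00000026531.4, chr1:174330518-174332873), a mucosal pentraxin of the gut, had the largest fall among the 10 named. It stood at 660.2, 6751, 1827, 2772 and 9561 FPKM in the PZH mice and 360.1, 507, 335, 257 and 311 FPKM in the PZH + AOM/DSS mice. The PZH mice differed widely among themselves, but their lowest value was above every PZH + AOM/DSS value (-3.08 ± 0.61 (SE), adjusted P = 0.0361). Slc37a2 (ENSMUSG00000032122.15, chr9:37227585-37255738), a sugar-phosphate exchanger, stood at 168, 81.4, 97.2, 88.1 and 113 FPKM in the PZH mice and 14.4, 15.6, 5.77, 12.6 and 27.3 FPKM in the PZH + AOM/DSS mice. The fall was seen in all mice (-2.87 ± 0.33 (SE), adjusted P = 0.00733) and remained without mice 15 and 35. Sult1a1, a sulfotransferase for phenols, stood at 185, 158, 160.04, 148 and 137 FPKM in the PZH mice and 39.7, 102, 19.3, 22.2 and 41.2 FPKM in the PZH + AOM/DSS mice (-2.04 ± 0.37 (SE), adjusted P = 0.0283), with mouse 13 closest to the PZH mice.

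Naaladl1, a brush-border peptidase, stood at 16.3, 20.2, 12.7, 12.8 and 16.5 FPKM in the PZH mice and 2.85, 7.76, 1.71, 2.44 and 4.24 FPKM in the PZH + AOM/DSS mice (-1.90 ± 0.29 (SE), adjusted P = 0.0166). Hao2, a peroxisomal hydroxyacid oxidase, stood at 109.6, 228, 166, 199 and 199.9 FPKM in the PZH mice and 63.3, 79, 73.5, 18.4 and 73.9 FPKM in the PZH + AOM/DSS mice, with mouse 35 lowest (-1.65 ± 0.37 (SE), adjusted P = 0.0487). Slc34a2, a phosphate carrier, stood at 12.7, 13.1, 19.2, 15.9 and 28.7 FPKM in the PZH mice and 1.66, 3.68, 0.511, 6.23 and 7.35 FPKM in the PZH + AOM/DSS mice (-2.15 ± 0.44 (SE), adjusted P = 0.0387). By function these are apical or metabolic genes, and the lack of overlap was required by the rule that named them. Wfdc2, a secreted protease inhibitor, fell by 1.52 on the log2 scale, and Lclat1, a cardiolipin-remodelling acyltransferase, fell by 1.55. The others of the 10 were 2310079G19Rik (-2.04) and 5033404E19Rik (-2.22). Slc37a2 was the only one of the 10 called without mice 15 and 35. Pef1, a calcium-binding protein, had a larger called difference than any of them but overlapped between the groups through PZH mouse 27, and was named after its values were seen.

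**Figure D2:**
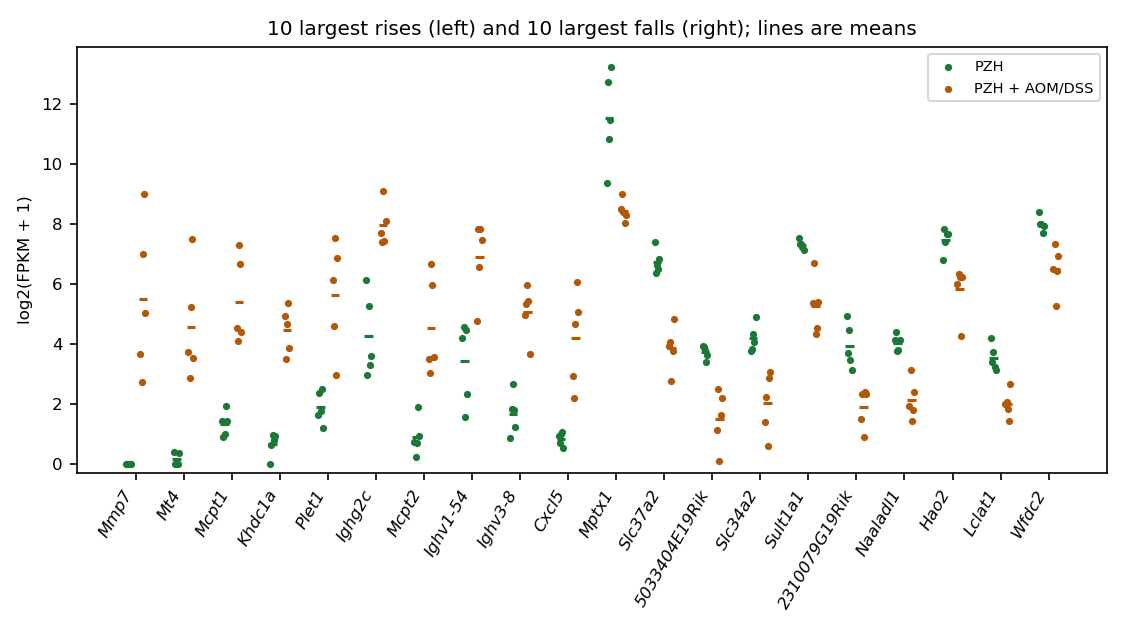
Points are single mice and lines are group means of log2(FPKM + 1) for the 10 genes with the largest rises and the 10 with the largest falls among called genes without overlap and with at least 5 FPKM in the higher group. Mmp7 is listed at 0 in all 5 PZH mice and spreads widely in the PZH + AOM/DSS mice, and Mptx1 spreads widely in the PZH mice.

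Genes of extracellular proteolysis and wound epithelium moved in 1 direction where they moved. Of 22 matrix metalloproteinases and inhibitors 17 were tested, and 6 rose and 0 fell, against a background of 1.74% and 0.678%. Besides Mmp7, these were Mmp28, Mmp19, Mmp2, Mmp3 and Timp1. Mmp7 passed the filter through the PZH + AOM/DSS group alone, so it could only come out higher. Mmp28, the epithelial epilysin, stood at 2.13, 2.6, 3.34, 2.25 and 3.94 FPKM in the PZH mice and 6.67, 6.61, 9.92, 7.72 and 5.52 FPKM in the PZH + AOM/DSS mice (1.11 ± 0.18 (SE), adjusted P = 0.0206). Mmp19 stood at 2.56, 2.18, 2.73, 2.79 and 2.44 FPKM in the PZH mice and 4.34, 4.55, 4.83, 4.52 and 4.04 FPKM in the PZH + AOM/DSS mice, a small difference with little spread (0.63 ± 0.11 (SE), adjusted P = 0.0255). Mmp3, stromelysin-1, stood at 1.95, 0.256, 0.955, 0.513 and 0.751 FPKM in the PZH mice and 2.45, 2.02, 6.01, 6.59 and 3.1 FPKM in the PZH + AOM/DSS mice (1.38 ± 0.31 (SE), adjusted P = 0.0456). Timp1, an inhibitor of these proteases, stood at 3.2, 2.3, 1.39, 1.79 and 1.87 FPKM in the PZH mice and 4.3, 4.45, 8.03, 13.1 and 6.51 FPKM in the PZH + AOM/DSS mice (1.34 ± 0.27 (SE), adjusted P = 0.0375). Mouse 35 was highest for Mmp7, Mmp3 and Timp1 but not for Mmp28 or Mmp19. The median over the 17 was 0.559.

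Of 13 genes of fetal-like and wound epithelium with a row, 11 were tested and 3 rose, with all 11 differences above 0 and a median of 1.04. Plaur, the urokinase receptor, stood at 3.34, 2.75, 3.36, 3.23 and 2.59 FPKM in the PZH mice and 6.82, 6.34, 14.6, 22.6 and 9.19 FPKM in the PZH + AOM/DSS mice (1.53 ± 0.29 (SE), adjusted P = 0.0325). Ereg, epiregulin, a ligand of the EGF receptor, stood at 0.968, 1.17, 2.4, 1.94 and 1.08 FPKM in the PZH mice and 8.04, 4.6, 24.2, 6.57 and 5.66 FPKM in the PZH + AOM/DSS mice (1.90 ± 0.37 (SE), adjusted P = 0.0338). Anxa1, annexin A1, stood at 123, 101, 123, 112 and 89.6 FPKM in the PZH mice and 137, 164, 234, 245 and 178 FPKM in the PZH + AOM/DSS mice (0.77 ± 0.17 (SE), adjusted P = 0.0447). Plaur was still called without mice 15 and 35, and the other two were not. Among 24 tested collagens and matrix genes 1 rose, Thbs1, thrombospondin-1, at 5.34, 4.61, 6.57, 3.87 and 6.46 FPKM in the PZH mice and 10.3, 11.8, 27.9, 25.6 and 14.1 FPKM in the PZH + AOM/DSS mice (1.49 ± 0.27 (SE), adjusted P = 0.0293). Of 17 fibroblast activation genes 2 rose, Pdpn, the lymphatic and stromal glycoprotein podoplanin (0.70), and Grem1, a BMP antagonist, which stood at 14, 15.2, 14.3, 9.81 and 17 FPKM in the PZH mice and 22.8, 32.3, 64.2, 39.8 and 29.2 FPKM in the PZH + AOM/DSS mice (1.29 ± 0.25 (SE), adjusted P = 0.0325).

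In the interleukin-1, interleukin-6 and TNF list 5 of 21 tested genes rose, 1 ligand, a pair of receptors and a pair of transcription factors. A further 6 higher and 2 lower genes had an unadjusted P under 0.05 and were not called, the lower ones being Il18 and Ptges. Il1b (ENSMUSG00000027398.13, chr2:129364570-129371139), interleukin-1β, stood at 2.17, 0.658, 1.65, 1.72 and 2.33 FPKM in the PZH mice and 10.5, 8.89, 42.1, 53.7 and 21.8 FPKM in the PZH + AOM/DSS mice. Every PZH + AOM/DSS mouse exceeded every PZH mouse (3.11 ± 0.46 (SE), adjusted P = 0.0156), and the call remained without mice 15 and 35. Tnfrsf1b, TNF receptor 2, stood at 12.6, 12.1, 13.7, 11.2 and 12.6 FPKM in the PZH mice and 25.4, 24.4, 35.3, 35 and 24.9 FPKM in the PZH + AOM/DSS mice, with a narrow spread in the PZH mice (1.14 ± 0.13 (SE), adjusted P = 0.00733). Osmr, the oncostatin M receptor, stood at 3.17, 3.22, 2.15, 2.25 and 3.42 FPKM in the PZH mice and 4.21, 5.66, 8.38, 7.52 and 6.19 FPKM in the PZH + AOM/DSS mice (0.93 ± 0.18 (SE), adjusted P = 0.0349). Stat3, the transcription factor below interleukin-6 type receptors, stood at 48.8, 41, 46.8, 35.4 and 39.5 FPKM in the PZH mice and 57.3, 57.5, 57.4, 67.3 and 54.5 FPKM in the PZH + AOM/DSS mice, and Rela, a subunit of NF-κB, differed by 0.44 (adjusted P = 0.0456). Tnf itself stood at 2.32, 1.89, 1.85, 1.41 and 1.09 FPKM in the PZH mice and 1.89, 4.26, 5.21, 8.35 and 2.56 FPKM in the PZH + AOM/DSS mice and did not pass (0.90 ± 0.29 (SE), adjusted P = 0.117). Il6 was too low to be tested, at 0, 0.0263, 0, 0 and 0.271 FPKM in the PZH mice and 0.0276, 0.0245, 0.685, 0.317 and 0.36 FPKM in the PZH + AOM/DSS mice.

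Most neutrophil genes were low in the PZH mice, so that 6 of 20 could be tested and 1 was called. Retnlg, a resistin-like gene of neutrophils, stood at 0.15, 0, 0.707, 1.45 and 0.322 FPKM in the PZH mice and 2.79, 2.22, 6.92, 16 and 6.09 FPKM in the PZH + AOM/DSS mice (2.17 ± 0.43 (SE), adjusted P = 0.0355). S100a8, a calprotectin subunit, stood at 0.903, 0.283, 0.0925, 8.98 and 0.965 FPKM in the PZH mice and 12.1, 2.61, 29.4, 109 and 47.8 FPKM in the PZH + AOM/DSS mice, where PZH mouse 46 overlapped the other group (3.44 ± 0.88 (SE), adjusted P = 0.0669). Lcn2, lipocalin-2, stood at 2.68, 1.16, 1.37, 2.37 and 2.69 FPKM in the PZH mice and 6.29, 3.73, 26, 114 and 26.5 FPKM in the PZH + AOM/DSS mice (2.72 ± 0.72 (SE), adjusted P = 0.0726). Summed over the 20 genes, levels were 65.7 to 178 FPKM in the PZH and 158 to 515 FPKM in the PZH + AOM/DSS mice, so the group sums overlapped. Retnlg, S100a8 and Lcn2 were a small part of the sums in the PZH mice, which rest mainly on members not named here. The overlap of the sums therefore does not describe these 3 genes. In bulk tissue, more cells of a type and more RNA per cell cannot be told apart. Of 8 neutrophil-attracting chemokines and related genes 4 were tested and Cxcl5 and Cxcl1 rose. Cxcl1 stood at 0.928, 0.235, 0.915, 0.149 and 0.411 FPKM in the PZH mice and 2.7, 1.43, 9.35, 14.7 and 5.1 FPKM in the PZH + AOM/DSS mice (2.05 ± 0.45 (SE), adjusted P = 0.0447). Among 14 tested CC chemokines 0 were called by limma, although 8 had an unadjusted P under 0.05. Ccl28, a chemokine that attracts IgA plasma cells, was lower without overlap, at 78.4, 75.6, 70.6, 66.5 and 63.9 FPKM in the PZH mice and 37.9, 38.1, 28.4, 22.6 and 63 FPKM in the PZH + AOM/DSS mice (-0.96 ± 0.22 (SE), adjusted P = 0.0522).

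Of 9 tested genes of the IL-17, IL-22 and Reg3 list 3 rose, Nos2, Duoxa2 and Pla2g2a, and 6 differences were above 0. The summed levels of the list overlapped, at 291 to 1527 FPKM in the PZH and 481 to 1240.2 FPKM in the PZH + AOM/DSS mice. Duoxa2, the maturation factor of an epithelial hydrogen peroxide producing oxidase, stood at 22.4, 30.8, 29.8, 23.7 and 21.4 FPKM in the PZH mice and 48, 48.9, 82.2, 94.6 and 73.9 FPKM in the PZH + AOM/DSS mice (1.37 ± 0.20 (SE), adjusted P = 0.0156). Pla2g2a, a phospholipase gene, stood at 6.14, 8.77, 10.3, 21.1 and 20.2 FPKM in the PZH mice and 58.8, 25.6, 81.3, 169.8 and 46.9 FPKM in the PZH + AOM/DSS mice (2.302 ± 0.48 (SE), adjusted P = 0.0387). Mouse 35 was highest for both.

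**Figure D3:**
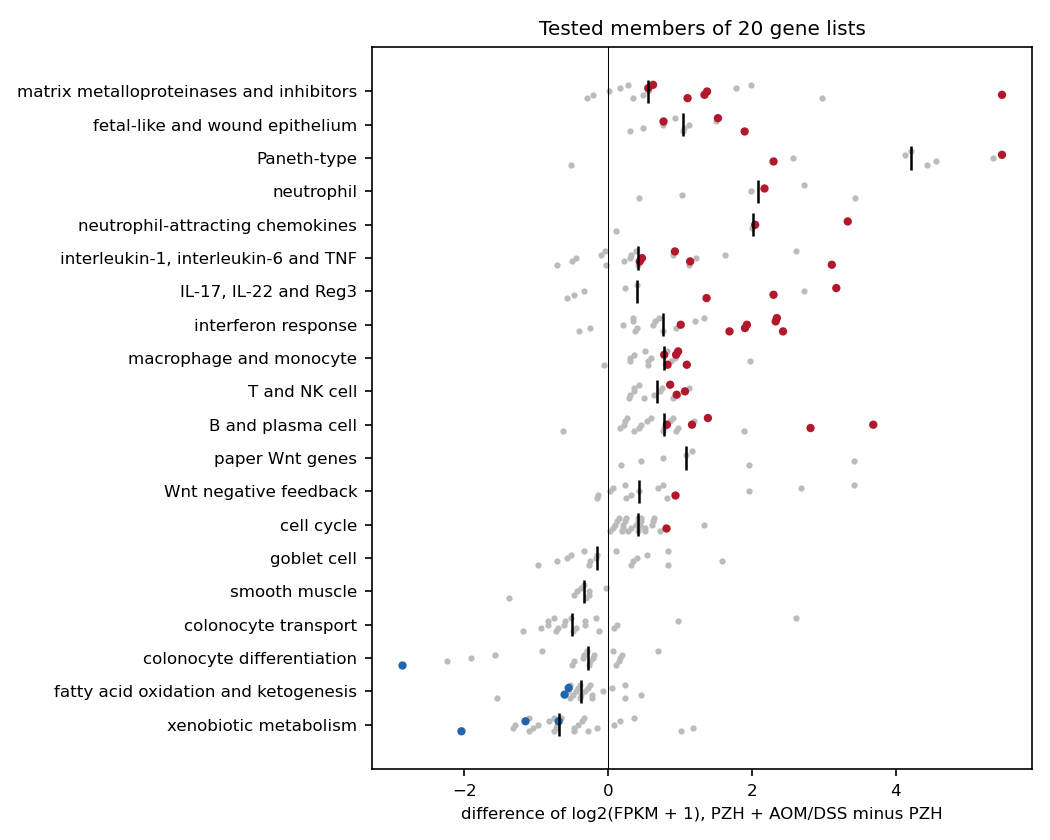
Each point is a tested member of 1 of 20 gene lists, at its difference of log2(FPKM + 1) between PZH + AOM/DSS and PZH mice, with members at adjusted P under 0.05 in red (higher) or blue (lower) and a black bar at the median of the list. Red points lie in the protease, wound, Paneth-type, immune and defence lists, with 1 each in Wnt negative feedback and cell cycle, and the 6 blue points in the last 3 lists from colonocyte differentiation to xenobiotic metabolism.

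Some interferon-inducible genes rose, although the summed levels of their list overlapped. Over the 22 genes the sums were 563 to 1439 FPKM in the PZH and 974 to 1691 FPKM in the PZH + AOM/DSS mice. PZH mouse 8 held the highest sum of the PZH mice. Of 21 tested, 7 were called higher and 0 lower, among them Cxcl9, Cxcl10, Gbp2, Gbp3, Gbp4 and Ifit2. Cxcl9, a chemokine induced by interferon-γ that draws T cells, stood at 1.57, 0.638, 0.536, 1.19 and 1.52 FPKM in the PZH mice and 7.12, 13.8, 20.3, 8.71 and 5.65 FPKM in the PZH + AOM/DSS mice (2.43 ± 0.31 (SE), adjusted P = 0.01003). Cxcl10, its relative, stood at 2.6, 1.14, 0.833, 2.05 and 2.88 FPKM in the PZH mice and 10.1, 15.1, 44.2, 8.61 and 6.4 FPKM in the PZH + AOM/DSS mice (2.35 ± 0.44 (SE), adjusted P = 0.0312). Mouse 15 was highest for both, and mouse 36 lowest. Ifit2, an antiviral protein, stood at 4.2, 2.17, 2.06, 3.03 and 4.35 FPKM in the PZH mice and 10.3, 16.2, 35.1, 13.9 and 6.63 FPKM in the PZH + AOM/DSS mice (1.91 ± 0.36 (SE), adjusted P = 0.0325). Cxcl9 alone of the 7 was called without mice 15 and 35.

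The guanylate-binding proteins and related GTPases, which coat vacuoles that hold microbes, were looked up as a family after Gbp3 was seen. Of 15 genes 14 were tested and 9 were called, all higher, with a median of 1.48. Gbp2, Gbp3 and Gbp4 were already counted in the interferon list, and over all genes tested 1.74% were called higher. Gbp3 stood at 1.82, 0.827, 1.12, 2.68 and 0.473 FPKM in the PZH mice and 13.6, 14.5, 15.4, 10.9 and 3.35 FPKM in the PZH + AOM/DSS mice (2.33 ± 0.38 (SE), adjusted P = 0.0206). Igtp stood at 18.2, 5.87, 6.83, 8.23 and 11.8 FPKM in the PZH mice and 47.6, 74.9, 82.5, 22.9 and 21.4 FPKM in the PZH + AOM/DSS mice (2.08 ± 0.42 (SE), adjusted P = 0.0376). Tgtp2 stood at 8.37, 2.09, 1.42, 1.64 and 3.55 FPKM in the PZH mice and 19.4, 41, 38.9, 14.7 and 9.62 FPKM in the PZH + AOM/DSS mice (2.54 ± 0.46 (SE), adjusted P = 0.0283), though Tgtp1 and Tgtp2 are near copies and their split is uncertain. In contrast with Mmp7, mouse 35 was not the highest for these 3 genes, and mice 35 and 36 held the lower values for Igtp. Ido1, the tryptophan-degrading enzyme induced by interferon-γ, stood at 4.43, 0.188, 0.0742, 0.117 and 0.423 FPKM in the PZH mice and 4.22, 10.7, 16.4, 7.67 and 6.25 FPKM in the PZH + AOM/DSS mice and overlapped through PZH mouse 8 (2.51 ± 0.47 (SE), adjusted P = 0.0308). MHC class II genes had the same outlying mouse. Cd74, the invariant chain, stood at 1324, 303, 335, 301 and 389 FPKM in the PZH mice and 537, 1434, 585, 634 and 585 FPKM in the PZH + AOM/DSS mice (0.68 ± 0.42 (SE), adjusted P = 0.386), and 0 of 9 class II genes were called by limma, with 1 at an unadjusted P under 0.05.

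Promoters of 5 of these rising genes are printed as the genomic context of the chemokine, interferon and protease results. They run from 250 bases before to 50 after the RefSeq start in GRCm38.p6. Capitals mark matches on either strand to 4 motifs: kappaB (GGANTTTCC), GAS (TTCNNNGAA), ISRE (TTCNNTTTC) and AP-1 (TGANTCA), which are recognised by NF-κB, STAT dimers, interferon regulatory factors and Fos/Jun proteins.
Cxcl1 promoter, chr5:90890995-90891294, plus strand: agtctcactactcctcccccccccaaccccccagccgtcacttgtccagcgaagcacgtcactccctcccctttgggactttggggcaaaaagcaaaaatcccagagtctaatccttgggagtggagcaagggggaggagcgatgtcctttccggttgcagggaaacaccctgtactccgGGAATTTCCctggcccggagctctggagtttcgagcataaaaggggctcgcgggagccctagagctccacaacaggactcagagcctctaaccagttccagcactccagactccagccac
Cxcl9 promoter, chr5:92328030-92328329, minus strand: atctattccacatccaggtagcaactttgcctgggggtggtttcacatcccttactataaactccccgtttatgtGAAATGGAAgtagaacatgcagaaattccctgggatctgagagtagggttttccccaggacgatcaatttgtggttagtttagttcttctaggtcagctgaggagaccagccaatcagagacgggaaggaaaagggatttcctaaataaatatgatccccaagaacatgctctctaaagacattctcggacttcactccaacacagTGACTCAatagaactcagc
Cxcl10 promoter, chr5:92348840-92349139, minus strand: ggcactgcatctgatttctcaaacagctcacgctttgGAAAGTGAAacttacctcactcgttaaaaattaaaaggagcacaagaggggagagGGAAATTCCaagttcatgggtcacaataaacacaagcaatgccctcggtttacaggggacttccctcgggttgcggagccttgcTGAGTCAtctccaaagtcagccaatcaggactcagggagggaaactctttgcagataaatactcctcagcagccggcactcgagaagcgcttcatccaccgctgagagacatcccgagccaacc
Gbp3 promoter, chr3:142559794-142560093, plus strand: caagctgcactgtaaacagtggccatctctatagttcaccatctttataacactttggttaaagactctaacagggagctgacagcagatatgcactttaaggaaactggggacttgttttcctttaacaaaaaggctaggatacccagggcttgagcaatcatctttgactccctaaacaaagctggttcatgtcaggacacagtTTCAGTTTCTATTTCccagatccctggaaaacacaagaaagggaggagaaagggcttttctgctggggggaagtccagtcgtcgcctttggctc
Mmp7 promoter, chr9:7691840-7692139, plus strand: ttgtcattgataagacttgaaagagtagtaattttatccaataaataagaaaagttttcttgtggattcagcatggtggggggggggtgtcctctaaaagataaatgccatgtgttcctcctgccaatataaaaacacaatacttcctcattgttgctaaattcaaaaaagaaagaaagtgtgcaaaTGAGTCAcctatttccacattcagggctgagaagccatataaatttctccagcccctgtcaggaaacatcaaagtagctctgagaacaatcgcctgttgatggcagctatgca

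Cxcl1 holds a kappaB match, Cxcl10 a kappaB, an ISRE and an AP-1 match, and Gbp3 a pair of overlapping ISRE matches. Cxcl9 holds an ISRE match and, downstream of the start, an AP-1 match, and Mmp7 an AP-1 match. No GAS match lies in these 5 windows. Over 16839 mouse promoters of this length that could be placed at a gene of the files, the share with a match was 1.35% for kappaB, 7.51% for GAS, 7.64% for ISRE and 6.42% for AP-1. The kappaB and ISRE forms are shorter than the ones searched at first, whose matches had been seen, so these matches are a description. They are matches of letters, and no binding was measured.

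Some myeloid and T cell genes rose by a modest amount. Of 17 tested macrophage and monocyte genes 5 rose: Cd68, Fcgr1, Fcgr3, Itgax and C1qb. Cd68, a lysosomal protein of macrophages, stood at 9.74, 6.42, 8.5, 8.84 and 6.62 FPKM in the PZH mice and 15.1, 17.1, 18.5, 17.3 and 15 FPKM in the PZH + AOM/DSS mice (0.98 ± 0.13 (SE), adjusted P = 0.0126). Fcgr3, an activating Fcγ receptor, stood at 12.9, 7.34, 7.84, 8.25 and 9.84 FPKM in the PZH mice and 17.9, 21.5, 22.6, 26.1 and 15.7 FPKM in the PZH + AOM/DSS mice (1.10 ± 0.17 (SE), adjusted P = 0.0198). When all Fcγ receptor genes and their signalling chain were then looked up, 5 of 5 were called higher (Fcgr1, Fcgr2b, Fcgr3, Fcgr4 and Fcer1g). Fcgr1 and Fcgr3 were already counted in the macrophage list, and over all genes tested 1.74% were called higher. Fcgr4, a receptor of IgG2 antibodies, stood at 0, 2.11, 1.02, 2.78 and 1.43 FPKM in the PZH mice and 7.85, 10.4, 12.6, 3.53 and 7.06 FPKM in the PZH + AOM/DSS mice (1.95 ± 0.38 (SE), adjusted P = 0.0344).

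Of 14 tested T and NK cell genes 3 rose, Cd4, Cd3e and Cd3g, and all 14 differences were above 0, with a median of 0.679. Cd4, the co-receptor of helper T cells, stood at 3.53, 2.24, 2.1, 1.76 and 2.04 FPKM in the PZH mice and 5.38, 6.96, 6.95, 4.21 and 3.95 FPKM in the PZH + AOM/DSS mice (0.95 ± 0.19 (SE), adjusted P = 0.0361). Cd3e, a chain of the T cell receptor complex, stood at 0.772, 0.0483, 0.905, 0.508 and 1.07 FPKM in the PZH mice and 2.68, 2.85, 2.79, 1.2 and 2.81 FPKM in the PZH + AOM/DSS mice (1.07 ± 0.22 (SE), adjusted P = 0.0382). Summed over 20 genes, T and NK cell levels were 11.8 to 24.7 FPKM in the PZH and 25.5 to 51.7 FPKM in the PZH + AOM/DSS mice and did not overlap. Vcam1, an adhesion molecule for leukocytes, stood at 6.88, 3.83, 6.02, 3.7 and 4.49 FPKM in the PZH mice and 9.53, 12.3, 14.6, 9.2 and 9.74 FPKM in the PZH + AOM/DSS mice (1.02 ± 0.19 (SE), adjusted P = 0.0283), and was named after its values were seen.

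Genes of antibody chains were among those that rose. Igha, the heavy chain of IgA, stood at 1585, 2393, 1582, 1807 and 2422 FPKM in the PZH mice and 4634, 4229, 4175, 4239.6 and 4333 FPKM in the PZH + AOM/DSS mice. Igkc, the κ light chain, stood at 1843, 2651, 1855, 2141 and 2161 FPKM in the PZH mice and 5687, 5119, 6448, 4728 and 5831 FPKM in the PZH + AOM/DSS mice. In both, every PZH + AOM/DSS mouse was above every PZH mouse, and for Igkc mouse 15 was the highest and mouse 35 the lowest of its group. The differences were 1.17 ± 0.16 (SE), adjusted P = 0.0128 for Igha and 1.39 ± 0.15 (SE), adjusted P = 0.00733 for Igkc. Heavy chains of IgG2 had larger differences and more spread. Ighg2c stood at 69.5, 6.88, 37.7, 8.84 and 11.1 FPKM in the PZH mice and 206, 169, 549.6, 172 and 275 FPKM in the PZH + AOM/DSS mice (3.69 ± 0.60 (SE), adjusted P = 0.0206), and Ighg2b at 46.8, 13.3, 34.8, 14.6 and 16.7 FPKM in the PZH mice and 111, 118, 446, 192 and 101 FPKM in the PZH + AOM/DSS mice (2.82 ± 0.46 (SE), adjusted P = 0.0206). PZH mice 8 and 27 were the highest of their group for both IgG genes. Mzb1, a chaperone of plasma cells, stood at 19.2, 19.97, 19.7, 16 and 20.2 FPKM in the PZH mice and 40.7, 31.8, 35.9, 34.4 and 29.3 FPKM in the PZH + AOM/DSS mice (0.82 ± 0.11 (SE), adjusted P = 0.0126). These 5 were the called members of 23 B and plasma cell genes, of which 22 differences were above 0. The summed levels, 5282 to 7079 FPKM against 11124 to 14099 FPKM, did not overlap. Igha and Igkc, both called, made up most of the sum in every mouse, so the sums do not describe the other members. Igkc was the member still called without mice 15 and 35.

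By annotation, 19 of 167 tested immunoglobulin V genes and 4 of 11 constant genes rose and 0 fell, and 88 of the 167 had an unadjusted P under 0.05. Ighv3-8 stood at 0.81, 2.58, 5.26, 2.46 and 1.37 FPKM in the PZH mice and 29.98, 39.5, 61.5, 42.2 and 11.7 FPKM in the PZH + AOM/DSS mice (3.40 ± 0.43 (SE), adjusted P = 0.01003). Ighv1-54 stood at 17.3, 22.5, 1.96, 21.2 and 4.02 FPKM in the PZH mice and 26.2, 225, 93.9, 224 and 174 FPKM in the PZH + AOM/DSS mice, with mouse 2 close to the PZH mice (3.46 ± 0.73 (SE), adjusted P = 0.041). V genes share sequence and are used by different clones in each mouse, so values of single V genes are uncertain.

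Metallothioneins and kinin receptors were looked up after Mt2 and Bdkrb2 were seen among the called genes. Mt1 stood at 99.2, 98.3, 89.99, 134 and 94.4 FPKM in the PZH mice and 245, 183, 224, 183 and 352 FPKM in the PZH + AOM/DSS mice (1.17 ± 0.19 (SE), adjusted P = 0.0198), so that Mt1, Mt2 and Mt4 were called of 4 genes. Mt4 passed the filter through the PZH + AOM/DSS group alone, so it could only come out higher. Mt3 stood at 1.68, 2.36, 1.5, 0.96 and 2.38 FPKM in the PZH mice and 8.49, 5.17, 21.4, 115 and 12.2 FPKM in the PZH + AOM/DSS mice (2.75 ± 0.65 (SE), adjusted P = 0.0556). Mt1 and Mt2 spread less across the PZH + AOM/DSS mice, whereas Mt3 and Mt4 were highest in mouse 35. Bdkrb2, the constitutive bradykinin receptor, stood at 1.23, 0.552, 1.9, 2.59 and 1.86 FPKM in the PZH mice and 6.98, 6.79, 7.95, 6.6 and 6.69 FPKM in the PZH + AOM/DSS mice, nearly the same in all PZH + AOM/DSS mice (1.66 ± 0.21 (SE), adjusted P = 0.01003). Bdkrb1, the inducible one, stood at 1.24, 0.483, 0.6996, 0.16 and 0.209 FPKM in the PZH mice and 1.82, 3.38, 10.5, 4.47 and 2.19 FPKM in the PZH + AOM/DSS mice (1.66 ± 0.36 (SE), adjusted P = 0.0423). Ffar4, a receptor for long-chain fatty acids, stood at 3.98, 4.73, 6.74, 4.91 and 5.5 FPKM in the PZH mice and 11.1, 13.5, 14.3, 12.5 and 15.2 FPKM in the PZH + AOM/DSS mice (1.22 ± 0.14 (SE), adjusted P = 0.00733).

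The Wnt pathway genes of the paper were chosen on these samples, so they are no independent evidence of a direction. Of 13 such genes, 7 were tested and 0 were called by limma, with 3 at an unadjusted P under 0.05, and without mice 15 and 35 again 0 were called. Wif1, a secreted Wnt inhibitor and β-catenin target, stood at 0.654, 1.37, 0, 1.19 and 0.839 FPKM in the PZH mice and 6.48, 2.37, 36.3, 123 and 17.8 FPKM in the PZH + AOM/DSS mice. The groups did not overlap, but the spread from mouse 13 to mouse 35 was wide (3.42 ± 0.81 (SE), adjusted P = 0.0545). With the spread shared over all 20 mice in 1 model, Wif1 and Nkd1 were called. Nkd1, an inhibitor of Dishevelled, stood at 3.48, 4.3, 2.9, 1.91 and 3.77 FPKM in the PZH mice and 7.42, 4.46, 21.5, 108 and 9.28 FPKM in the PZH + AOM/DSS mice (1.97 ± 0.68 (SE), adjusted P = 0.135). Axin2, a scaffold of β-catenin destruction, stood at 8.3, 9.5, 9.05, 7.08 and 14.2 FPKM in the PZH mice and 16.3, 10.1, 11.9, 55.7 and 11.1 FPKM in the PZH + AOM/DSS mice, where mouse 35 stood alone (0.77 ± 0.40 (SE), adjusted P = 0.311). Ctnnb1, β-catenin itself, stood at 232, 244, 253, 194 and 237 FPKM in the PZH mice and 213, 218, 301, 335 and 262 FPKM in the PZH + AOM/DSS mice (0.18 ± 0.14 (SE), adjusted P = 0.507).

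Notum, a lipase that inactivates Wnt ligands, was listed at 0 in all PZH mice and at 1.1, 0.459, 10.4, 32.5 and 1.47 FPKM in the PZH + AOM/DSS mice, and was not tested because fewer than 5 mice reached 0.5 FPKM. The untested ligands Wnt10a, Wnt16 and Wnt3 were at most 0.11 FPKM in the PZH mice, and their highest values were in mouse 35, at 10.6, 1.33 and 1.04 FPKM. Summed over the 13 genes, mouse 35 reached 817 FPKM against 264 to 430 FPKM in the other PZH + AOM/DSS mice and 223 to 295 FPKM in the PZH mice. Among 15 tested negative-feedback genes of the pathway 1 rose, Sfrp1, a secreted frizzled-related inhibitor, at 9.29, 10.5, 7.06, 7.67 and 12.5 FPKM in the PZH mice and 14.2, 16.6, 28.9, 18.6 and 16.8 FPKM in the PZH + AOM/DSS mice (0.93 ± 0.20 (SE), adjusted P = 0.0431). Unlike Wif1, Sfrp1 was highest in mouse 15. None of 6 Wnt ligands and 14 receptors tested was called by limma; at an unadjusted P under 0.05 there were 0 ligands and 3 receptors.

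Frat1 and Frat2, which bind GSK3 and favour β-catenin, fell, and were named after their values were seen. Frat1 stood at 7.81, 6.95, 7.22, 5.55 and 7.06 FPKM in the PZH mice and 3.68, 3.65, 3.24, 3.14 and 3.24 FPKM in the PZH + AOM/DSS mice (-0.85 ± 0.12 (SE), adjusted P = 0.0128). Frat2 stood at 19.2, 21.7, 18.5, 21.2 and 17.3 FPKM in the PZH mice and 12.8, 8.17, 5.81, 7.29 and 9.6 FPKM in the PZH + AOM/DSS mice (-1.12 ± 0.17 (SE), adjusted P = 0.0191). No value overlapped for either gene. Tcf7l1, a repressor of Wnt targets, stood at 15.4, 15.6, 10.9, 7.62 and 10.5 FPKM in the PZH mice and 6.07, 7.58, 2.55, 2.59 and 6.76 FPKM in the PZH + AOM/DSS mice and missed the threshold (-1.15 ± 0.30 (SE), adjusted P = 0.0695).

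Lyz1 and Defa24, genes of Paneth cells of the small intestine, had the same order of PZH + AOM/DSS mice as Wif1 and Nkd1. Of 16 Paneth-type genes 9 were tested, 5 of them through the PZH + AOM/DSS group alone, and Mmp7 and Pla2g2a were called. Lyz1, the Paneth lysozyme, stood at 10.3, 2.06, 6.51, 2.59 and 4.21 FPKM in the PZH mice and 37.1, 22.1, 599, 1376 and 47.5 FPKM in the PZH + AOM/DSS mice (4.56 ± 1.06 (SE), adjusted P = 0.0525). Defa24, an α-defensin, stood at 0, 0, 0, 0 and 0.156 FPKM in the PZH mice and 10.4, 3.01, 149, 1069.6 and 17.6 FPKM in the PZH + AOM/DSS mice (5.36 ± 1.25 (SE), adjusted P = 0.0525). Both were highest in mouse 35, then in mouse 15, and lowest in mouse 13. Ang4, an antimicrobial ribonuclease, went its own way, at 4.63, 1159, 142, 335 and 2095 FPKM in the PZH mice and 142, 86.6, 773, 295 and 37.4 FPKM in the PZH + AOM/DSS mice (-0.51 ± 1.44 (SE), adjusted P = 0.872). The α-defensin genes are near copies of each other, so their separate values are uncertain.

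**Figure D4:**
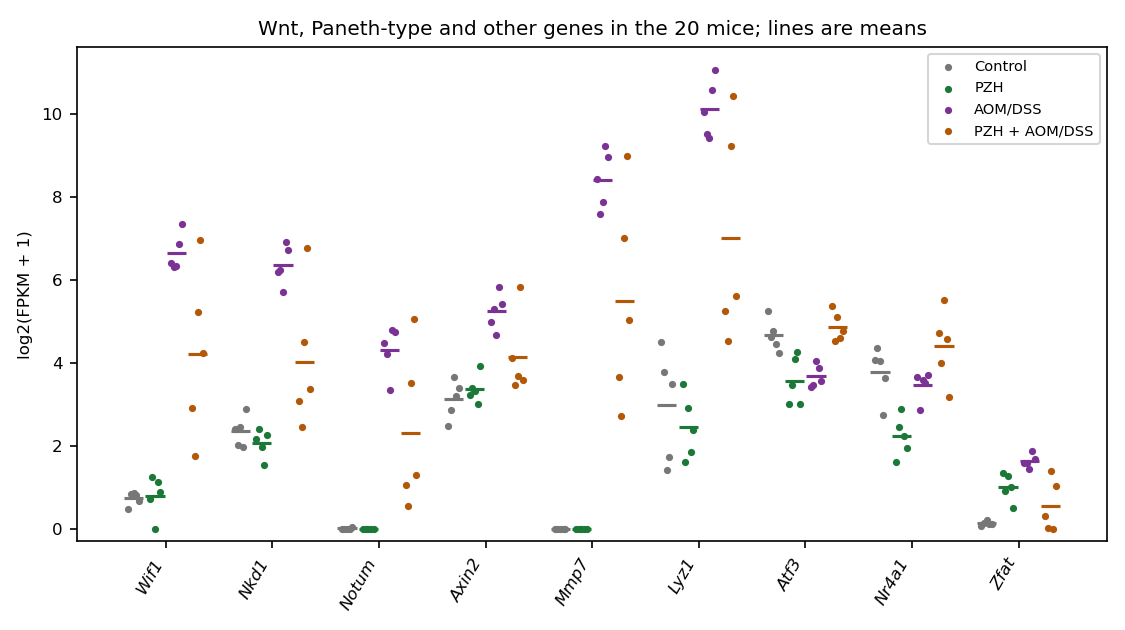
Points are single mice and lines are group means of log2(FPKM + 1) for 9 genes in the 4 groups of the study. For Wif1, Nkd1, Notum, Mmp7 and Lyz1 the PZH + AOM/DSS mice spread from near the PZH mice to the range of the AOM/DSS mice, and for Atf3 the order of groups is reversed between the water and the PZH mice.

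Proliferation genes leaned upward in part of the mice, with few calls, where 1.74% of all genes tested were called higher. Summed over the 28 cell cycle genes, levels were 403 to 491 FPKM in the PZH and 396 to 789 FPKM in the PZH + AOM/DSS mice. The sums overlapped, with mouse 13 lowest. The median shift of the list from the PZH mean was 0.582, -0.0997, 0.747, 0.489 and 0.109 in the PZH + AOM/DSS mice. All 28 cell cycle genes had differences above 0 (median 0.413) and 11 had an unadjusted P under 0.05, but 1 was called. It was Ccne2, cyclin E2, at 2.54, 3.72, 3.02, 2.53 and 3.21 FPKM in the PZH mice and 5.66, 5.28, 7.27, 6.07 and 5.66 FPKM in the PZH + AOM/DSS mice (0.81 ± 0.13 (SE), adjusted P = 0.0206). Its partner Ccne1 stood at 3.57, 2.89, 3.13, 3.36 and 3.85 FPKM in the PZH mice and 6.86, 5.12, 6.78, 8.55 and 4.25 FPKM in the PZH + AOM/DSS mice (0.72 ± 0.17 (SE), adjusted P = 0.0525). Ccnd1, cyclin D1, stood at 23.4, 31.5, 27.4, 25.5 and 33.2 FPKM in the PZH mice and 44.3, 39.95, 63.6, 69.1 and 34.3 FPKM in the PZH + AOM/DSS mice, without overlap and not called (0.77 ± 0.19 (SE), adjusted P = 0.0642). Myc stood at 7.66, 9.27, 12.5, 9.31 and 13.1 FPKM in the PZH mice and 14.7, 17.5, 17.3, 23.9 and 12.1 FPKM in the PZH + AOM/DSS mice (0.66 ± 0.19 (SE), adjusted P = 0.0922), and Pcna, the replication clamp, at 84.9, 72.8, 68, 63.9 and 60.7 FPKM in the PZH mice and 90.5, 71.8, 112, 137 and 69.4 FPKM in the PZH + AOM/DSS mice (0.41 ± 0.19 (SE), adjusted P = 0.24). In the list of 7 protein genes, Ccnd1, Ctnnb1, Il1b, Il6, Myc, Pcna and Tnf, 6 were tested and Il1b was called. Of 17 stem cell genes 1 rose, Msi1, an RNA-binding protein, at 0.155, 0.535, 0.294, 0.271 and 0.234 FPKM in the PZH mice and 0.553, 1.06, 0.798, 1.54 and 1.2 FPKM in the PZH + AOM/DSS mice. In the glycolysis list 1 of 19 rose, Pfkfb3, an activator of glycolysis, at 3.48, 2.6, 2.6, 1.78 and 2.6 FPKM in the PZH mice and 4.49, 5.44, 10.5, 7.48 and 7.28 FPKM in the PZH + AOM/DSS mice (1.13 ± 0.21 (SE), adjusted P = 0.0293).

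Of 27 tested xenobiotic genes 3 fell, Sult1a1, Ces1d and Gstm3, and 0 rose, and at an unadjusted P under 0.05 there were 15 lower and 2 higher. The list's median was -0.687, and 5 of the 27 differences were above 0. Ces1d, a carboxylesterase, stood at 12.7, 13, 14.2, 11.3 and 14.3 FPKM in the PZH mice and 9.23, 9.49, 7.45, 5.31 and 7.91 FPKM in the PZH + AOM/DSS mice (-0.69 ± 0.15 (SE), adjusted P = 0.0434). Gstm3, a glutathione transferase, stood at 38.1, 52.7, 54.3, 57.3 and 54.1 FPKM in the PZH mice and 29.6, 29.9, 23.6, 10.4 and 25.2 FPKM in the PZH + AOM/DSS mice (-1.15 ± 0.26 (SE), adjusted P = 0.0456). Mouse 35 was lowest for both. The summed xenobiotic levels, 1147 to 1311 FPKM in the PZH and 491 to 909 FPKM in the PZH + AOM/DSS mice, did not overlap.

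Of 22 tested genes of fatty acid oxidation and ketogenesis 2 fell. Acadm, medium-chain acyl-CoA dehydrogenase, stood at 70.2, 67.2, 70.2, 73.5 and 60.5 FPKM in the PZH mice and 46, 57.1, 34.1, 40.8 and 47.7 FPKM in the PZH + AOM/DSS mice (-0.61 ± 0.13 (SE), adjusted P = 0.0424), and Acaa2, a thiolase, differed by -0.55 (adjusted P = 0.0498). Of the 22, 9 had an unadjusted P under 0.05 and 4 differences were above 0. Acadvl, the very-long-chain enzyme, stood at 63.9, 65.8, 62.1, 69.4 and 62.9 FPKM in the PZH mice and 50.5, 56.2, 39.5, 44.7 and 35.6 FPKM in the PZH + AOM/DSS mice without overlap (-0.53 ± 0.12 (SE), adjusted P = 0.0525). Other mitochondrial enzymes among the called genes, named after their values were seen, were Pccb, Mcee and Mccc2 of branched-chain and propionate breakdown and Coq8a and Coq9 of ubiquinone synthesis. Coq8a stood at 14.6, 9.73, 13.6, 13.3 and 12.7 FPKM in the PZH mice and 4.63, 5.83, 3.25, 4.32 and 7.1 FPKM in the PZH + AOM/DSS mice (-1.22 ± 0.18 (SE), adjusted P = 0.0156). Hpgd, which inactivates prostaglandins, stood at 103, 90.3, 67.5, 100.01 and 90.8 FPKM in the PZH mice and 49.5, 58.4, 41.1, 32.9 and 70.2 FPKM in the PZH + AOM/DSS mice (-0.86 ± 0.20 (SE), adjusted P = 0.0492). Ddc, an amine-forming decarboxylase, stood at 52, 44.6, 49.1, 54.7 and 49.9 FPKM in the PZH mice and 24.1, 30.7, 16.2, 29.2 and 28.6 FPKM in the PZH + AOM/DSS mice (-0.96 ± 0.16 (SE), adjusted P = 0.0218) and was still called without mice 15 and 35.

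Genes of mature colonocytes gave few calls, as did all genes tested, of which 0.678% were called lower. An unadjusted P under 0.05 was found for 20.9% of all genes tested. Among 20 transport genes 0 were called by limma and 10 had an unadjusted P under 0.05 (median -0.502, with 4 differences above 0). Aqp8, a water channel of surface colonocytes, stood at 392, 332, 363, 307 and 340.3 FPKM in the PZH mice and 156, 306, 149, 98.7 and 276 FPKM in the PZH + AOM/DSS mice, without overlap (-0.93 ± 0.27 (SE), adjusted P = 0.0963). Slc16a1, the butyrate transporter, stood at 97.7, 86.5, 101, 104 and 81 FPKM in the PZH mice and 65.9, 76.3, 50.2, 36.2 and 60.9 FPKM in the PZH + AOM/DSS mice (-0.73 ± 0.18 (SE), adjusted P = 0.0617). Car2, a carbonic anhydrase, stood at 544, 619.9, 544, 618 and 605 FPKM in the PZH mice and 303, 512, 224, 192 and 356 FPKM in the PZH + AOM/DSS mice (-0.97 ± 0.23 (SE), adjusted P = 0.0555). All 3 were lowest in mouse 35. Of 12 carbonic anhydrases Car15 was called lower, at 0.948, 0.984, 0.647, 0.868 and 0.851 FPKM in the PZH mice and 0.365, 0.19, 0.356, 0 and 0.283 FPKM in the PZH + AOM/DSS mice. Car15 passed the filter through the PZH group alone, so it could only come out lower. Of 20 differentiation genes Slc37a2 was the called one. Sycn, syncollin, stood at 1279.6, 895, 931, 378 and 622 FPKM in the PZH mice and 151, 526, 92.3, 226 and 201 FPKM in the PZH + AOM/DSS mice (-1.91 ± 0.44 (SE), adjusted P = 0.0525).

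Other cell types of the colon wall gave few calls, where 2.42% of all genes tested were called. The share at an unadjusted P under 0.05 was 20.9% over all genes tested. Of 17 goblet cell, 15 enteroendocrine, 9 tuft cell, 9 smooth muscle, 12 enteric neuron and glia and 11 endothelial genes tested, 0 were called by limma in each list, with 0, 3, 0, 1, 1 and 2 at an unadjusted P under 0.05. Smooth muscle differences were all under 0 (median -0.331), and the sums, 1086 to 2498 FPKM in the PZH and 911 to 2381 FPKM in the PZH + AOM/DSS mice, overlapped. Myh11, the smooth muscle myosin, was lowest in mouse 15, at 176, 155, 175, 86.9 and 103 FPKM in the PZH mice and 124, 121, 9.41, 68.3 and 32.4 FPKM in the PZH + AOM/DSS mice (-1.38 ± 0.61 (SE), adjusted P = 0.227). The part of muscle content in the other results was not tested. In the squamous epithelium list 5 of 18 genes were tested and Sprr1a, a cornified envelope protein, rose, at 2.24, 4.95, 5.38, 3.46 and 3.26 FPKM in the PZH mice and 10.5, 9.88, 43.1, 9.51 and 12.4 FPKM in the PZH + AOM/DSS mice (1.68 ± 0.38 (SE), adjusted P = 0.0488). Krt13 and Krt14, keratins of stratified epithelium, were higher without overlap, but neither was called (adjusted P = 0.0525 and 0.123). Of the 3 genes of this list higher without overlap, 1 passed the filter through the PZH + AOM/DSS group alone. It was a keratin, not Sprr1a, and could only come out higher. Of 14 beta-catenin destruction and transcription, 16 Myc and cyclin D, 15 cholesterol and bile acid, 17 simple-epithelium keratin and adhesion, 6 small intestine, 5 adipocyte and mesentery, 6 skeletal muscle and aorta and 4 erythrocyte genes tested, 0 were called by limma in each list, with 2, 5, 1, 5, 2, 0, 0 and 0 at an unadjusted P under 0.05. Cela1, an elastase and the 1 gene tested of the pancreas list, fell, at 259, 239.8, 231, 158 and 199 FPKM in the PZH mice and 100.2, 112, 58.8, 126 and 144 FPKM in the PZH + AOM/DSS mice (-1.04 ± 0.23 (SE), adjusted P = 0.0446).

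The same AOM/DSS contrast could be read in the 10 water mice, which share no animal with the PZH mice. There 3739 of 15812 genes were called (23.6%), against 2.42% among the PZH mice. Of the 378 genes called among the PZH mice, 371 were tested in the water mice, 355 of them with the same direction (95.7%) and 266 also called in that direction, which is 70.4% of the 378. From the other side, 3466 of the 3739 were tested among the PZH mice, where 3268 had the same direction (94.3%). Their median size was 0.705 in the water mice and 0.375 among the PZH mice, and since these genes were chosen in the water mice, a smaller size elsewhere follows in part from the choice. Over all genes tested in both arms the share with the same direction is not given here. The 95.7% and 94.3% therefore have no background beside them. The median SD within a group was 0.289 for PZH + AOM/DSS, 0.221 for PZH, 0.235 for AOM/DSS and 0.267 for Control mice.

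A test of the difference between the 2 effects over all 20 mice called 2 of 16936 genes (0.0118%), Atf3 and Zfat, with 1749 (10.3%) at an unadjusted P under 0.05. Both calls were lost, the count being 0, with median-of-ratios scaling or with a pseudocount of 0.1. Leaving out 1 mouse gave 476 calls without mouse 35 and 0 or 1 without any other mouse. For Wif1 the difference of effects was -2.501, adjusted P = 0.382, for Nkd1 -2.036, adjusted P = 0.389, and for Mmp7 -2.933, adjusted P = 0.388. For none of the 13 Wnt genes did this test pass with all mice.

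Atf3, a stress-induced transcription factor, stood at 7.04, 9.97, 16, 18.1 and 7.01 FPKM in the PZH mice and 40.2, 22.2, 33.1, 23.3 and 26.1 FPKM in the PZH + AOM/DSS mice. It rose with AOM/DSS here (1.31 ± 0.27 (SE), adjusted P = 0.0404). In the water mice it stood at 37, 23.7, 26.3, 21.1 and 17.8 FPKM in Control and 9.77, 10.1, 15.4, 13.6 and 10.7 FPKM in AOM/DSS mice and fell (-0.996 ± 0.19 (SE), adjusted P = 0.00444). The difference of the effects was 2.305, adjusted P = 0.0459. The PZH group had the low levels in the first pair and the AOM/DSS group in the second. Of the 378 called genes, 16 had the opposite sign in the water mice, and Atf3 was the one called in both. Nr4a1, an immediate early nuclear receptor, was among the 16, at 2.08, 4.49, 6.37, 3.75 and 2.86 FPKM in the PZH mice and 25.4, 15, 44.8, 22.9 and 8.11 FPKM in the PZH + AOM/DSS mice (2.17 ± 0.39 (SE), adjusted P = 0.0283), with 15.9, 19.7, 15.4, 5.69 and 11.4 FPKM in Control and 11.5, 6.3, 11, 10.4 and 12.1 FPKM in AOM/DSS mice. Dusp1, a MAP kinase phosphatase, also among them, stood at 8.27, 10.9, 13.5, 11.9 and 7.96 FPKM in the PZH mice and 14, 16.4, 23.1, 22.4 and 19.7 FPKM in the PZH + AOM/DSS mice (0.81 ± 0.18 (SE), adjusted P = 0.0455). The lookup of 14 immediate early genes followed from Atf3, Nr4a1 and Dusp1, which were already seen as called. Of these 14, 13 were tested and 5 were called higher (1.74% over all genes tested): Atf3, Nr4a1, Nr4a3, Dusp1 and Sik1. Fos stood at 30.7, 71.5, 97.4, 50.4 and 38.9 FPKM in the PZH mice and 51.2, 34.8, 83.2, 72.8 and 62.7 FPKM in the PZH + AOM/DSS mice and did not follow them (0.13 ± 0.32 (SE), adjusted P = 0.846).

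Zfat, a zinc finger gene of lymphocytes, showed no called difference among the PZH mice, at 1.54, 0.869, 1.44, 1.01 and 0.425 FPKM in the PZH mice and 0.231, 0.0131, 1.64, 0 and 1.03 FPKM in the PZH + AOM/DSS mice (-0.46 ± 0.29 (SE), adjusted P = 0.385). In the water mice it stood at 0.0527, 0.097, 0.157, 0.0881 and 0.0853 FPKM in Control and 2.03, 1.99, 1.73, 2.68 and 2.23 FPKM in AOM/DSS mice (1.51 ± 0.10 (SE), adjusted P = 5.2e-06). The difference of the effects was -1.969, adjusted P = 0.0459.

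**Figure D5:**
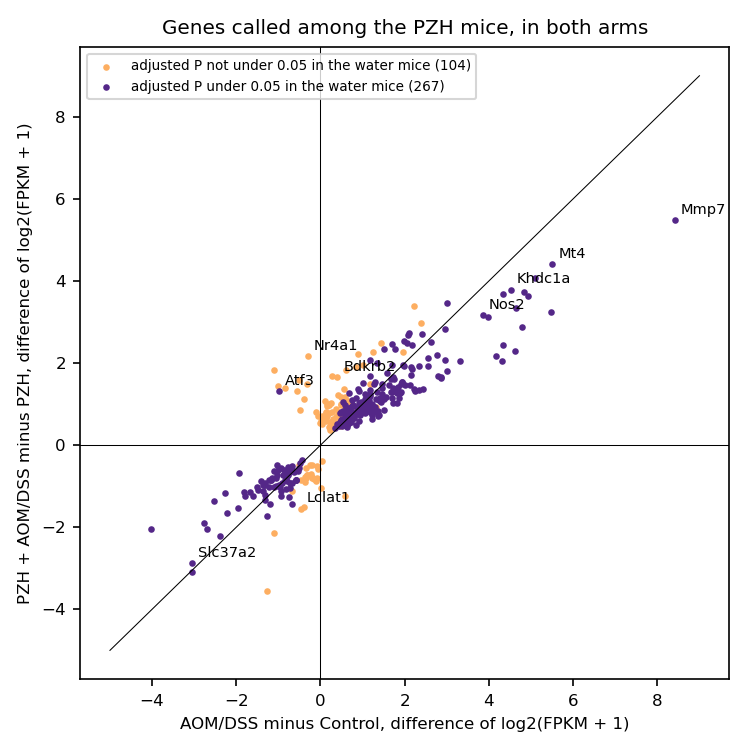
Each point is 1 of the 371 genes called among the PZH mice and tested in both arms, with the AOM/DSS difference in the water mice on the x axis and among the PZH mice on the y axis, both in log2(FPKM + 1), and a line of equal differences. Purple points are the 267 genes also called in the water mice, which include Atf3 with opposite signs, and orange points the 104 that are not.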

How the data were processed

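Colon RNA was sequenced from 20 mice, 1 library each, after ribosomal RNA depletion (the methods also name a poly(A) module). The authors filtered reads, aligned them to mm10 with HISAT2 and deposited FPKM per transcript from StringTie. The files hold 118434 transcripts, of which 22252 are assembled ones with no Ensembl name. Values of the 96032 Ensembl transcripts found in GENCODE M21 (GRCm38) were summed to 32991 genes, and 150 others were left out, so reads given to assembled transcripts are missing from their genes. The files hold no counts, so count tests were not used. Depth was estimated from the step of low values, with 15.3 to 19.4 M fragments over the 20 mice.

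Genes entered limma 3.58.1 in R 4.3.3 on log2(FPKM + 1) where 5 or more of the 10 mice reached 0.5 FPKM, with an intensity trend and no covariates. The arm of water mice was fitted alike, and the difference of effects over all 20 mice. The fit was checked on simulated data. Each mouse is 1 replicate, so P values measure the spread between mice. Alternatives were median-of-ratios scaling, other filters, a pseudocount of 0.1, sample quality weights, 1 model over 20 mice and leaving out mice.

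The genes named were the 13 Wnt genes and 7 protein genes of the paper; the 10 largest rises and falls with adjusted P under 0.05, at least 5 FPKM in the higher group and no overlap; up to 4 members of each of 44 lists with the smallest P; and members of short counts. Members of the comparison, lists and tests were chosen with earlier results of these data known. Genes said to be looked up or named after their values were seen fall outside the rule. Promoters are from RefSeq (GRCm38.p6), and the kappaB and ISRE motifs were shortened after longer forms had been searched. A gene of the interferon response list is not reported here.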

Additional observations from a re-analysis of the deposited data

Results flagged for a closer look

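Among the 20 genes named from the paper and the 20 with the largest changes (39 different genes), a test for a single outlying mouse per group (a gap to the next mouse of more than 0.71 of the range, on the log2 scale) was run on 76 groups of 5. It marked 4 values, where chance marks about 1 in 20 groups, or 3.8. In the PZH + AOM/DSS group these were mouse 35 for Axin2 (55.7 FPKM), for Jun (95.6 FPKM) and for Hao2 (18.4 FPKM). In the PZH group it was mouse 53 for Il6 (0.271 FPKM), a level of few fragments.

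The effect of AOM/DSS differed between the PZH and the water mice for 2 genes by the test of the difference over all 20 mice. The count was 0 with median-of-ratios scaling or a pseudocount of 0.1, 476 without PZH + AOM/DSS mouse 35 and 0 or 1 without any other mouse. For Atf3 the difference of the 2 effects was 2.305 on the log2 scale (adjusted P = 0.0459), since the PZH + AOM/DSS mice were above the PZH mice and the AOM/DSS mice below the Control mice. For Zfat it was -1.97 (adjusted P = 0.0459), since AOM/DSS mice were above Control mice and the PZH + AOM/DSS mice overlapped the PZH mice.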

How the results depend on the processing

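The count of 378 called genes (272 higher, 106 lower) moved with the mice. Leaving out 1 mouse at a time gave 54 to 423 calls, 42 to 310 higher and 12 to 122 lower. It was 54 without PZH mouse 27, 63 without PZH mouse 53, 72 without PZH + AOM/DSS mouse 15, 101 and 110 without PZH mice 14 and 46, 174 without PZH + AOM/DSS mouse 2 and 229 without PZH mouse 8, and the lower calls numbered 67 without PZH + AOM/DSS mouse 35. Without mice 15 and 35, a setting chosen after seeing the data, there were 33 calls (24 higher, 9 lower). With no filter on low values, where 30953 genes shared the adjustment, there were 90 (63 and 27), and with all 20 mice in 1 model 1002 (690 and 312), of which 343 were among the 378. Scaling, a pseudocount of 0.1, quality weights and a filter of 2 FPKM gave 333 to 435. Genes by the criteria of the study numbered 490, but 910 with a pseudocount of 0.1 and 320 without mice 15 and 35, and transcripts 1326, but 2793 with a pseudocount of 0.1. Leaving out 1 mouse gave 404 to 553 genes and 1125 to 1439 transcripts. Called Wnt genes of the paper numbered 0, but 1 with a pseudocount of 0.1, with quality weights or without mouse 13 (0 to 1 over single mice left out) and 2 with all 20 mice in 1 model. The 2 genes whose AOM/DSS effect differed from the water mice became 0 with scaling or a pseudocount of 0.1, and 0 to 476 with 1 mouse left out, 476 being the count without mouse 35. The cause was not tested.

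Over 250 named genes and all settings, 4147 differences were recomputed: 3288 kept direction and side of the threshold, 763 lost and 85 gained the call, and 11 turned direction, all of genes that were not called. Groups that do not overlap fix the direction when a mouse is left out. Without mice 15 and 35 the turned values were -0.23 for Avil, -0.0066 for Ctnnb1 and -0.14 for Fos. With 1 mouse left out, the differences ranged from -0.31 to 0.68 for Cfd, -0.058 to 0.35 for Fos, -0.087 to 0.51 for Hbb-bs, -0.012 to 0.95 for Hbb-bt and -0.298 to 0.13 for Junb. No paired analysis was possible because the mouse numbers are not shared between the groups. The files hold no counts, so levels near 0 have no counting interval.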

Other observations

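Over all genes tested 1.74% were called higher and 0.678% lower, and the counts differed by annotated gene type. Of 240 long intergenic noncoding genes tested 0 were called higher and 3 lower, of 332 antisense genes 2 higher and 5 lower, of 179 processed transcripts 1 higher and 3 lower, and of 902 processed pseudogenes 4 higher and 0 lower, while of 13304 protein-coding genes 238 were higher and 87 lower.

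Gm22133, an annotated microRNA gene, had the largest difference of all tested genes in either direction and was not called (-7.49, adjusted P = 0.0525). It stood at 937, 792, 825, 1197 and 981 FPKM in the PZH mice and at 0.296, 0.263, 0.28, 1431 and 0.277 FPKM in the PZH + AOM/DSS mice, where mouse 35 alone was at the level of the PZH mice.

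Pef1 stood at 70.5, 66.8, 4.03, 75.6 and 51.4 FPKM in the PZH mice and at 9.13, 1.69, 3.201, 0.0167 and 2.84 FPKM in the PZH + AOM/DSS mice (-3.55, adjusted P = 0.0479), and in PZH mouse 27 it was at the level of the other group.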
